A study of Homo sapiens with 4 samples.

Results

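The genes described here encode surface proteins by which a tumor cell is recognized or spared by natural killer (NK) cells, T cells and macrophages. They are 5 ligands of the activating receptor NKG2D (MICA, MICB, ULBP1, ULBP2 and ULBP3) and 4 proteins studied as immune checkpoints (CD274, CD276, CD47 and PVR). They were chosen by name, because ULBP2 and CD274 have been reported as targets of miR-34a, and every probe carrying exactly one of these gene names was taken. All 9 genes were found, with 16 of the 50599 probes of the array, among 36337 gene names. The comparison asked how their mRNA differed after ectopic expression of miR-34a.

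GIST-T1, an established line of human gastrointestinal stromal tumor (GIST) cells, carries an activating mutation of KIT. The cells (3000000 per transfection) were electroporated with 100 pmol of a mirVana miR-34a mimic, a synthetic duplex that supplies the mature miRNA, or of the mirVana miRNA mimic Negative Control #1, and total RNA was collected 48 h later. Each condition had 2 one-color Agilent arrays, named here miR-34a mimic 1 and 2 and negative control 1 and 2. A single cell line was used, no untransfected cells were analysed here, and the labels do not say whether replicates came from separate cultures, so that the p-values measure only the spread between these arrays, which may be technical. The array annotation gives positions in hg19.

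NKG2D is carried by NK cells and by cytotoxic T cells, and its ligands are distant relatives of MHC class I that many cells display after infection, DNA damage or transformation. MICA and MICB span the membrane, whereas ULBP1, ULBP2 and ULBP3 are known as glycosylphosphatidylinositol (GPI)-anchored forms. CD274 (PD-L1) and CD276 (B7-H3) belong to the B7 family and restrain T cells, the former through the receptor PD-1. CD47 binds SIRPA on macrophages and inhibits phagocytosis, and PVR (CD155) is bound by the activating receptor CD226 and by the inhibitory receptors TIGIT and CD96.

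A miRNA recognizes its targets mainly through its seed, bases 2 to 8 from the 5′ end. The mature sequences below, from RefSeq on GRCh38.p14, are shown because the mimic acts through this seed, which is in capitals. Of the 2545 mature miRNAs searched, 3 carried it. That set may be incomplete, so other miRNAs, including members of the miR-34 family, may share this seed.

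hsa-miR-34a-5p: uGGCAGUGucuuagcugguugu

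hsa-miR-449a: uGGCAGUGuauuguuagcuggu

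hsa-miR-449b-5p: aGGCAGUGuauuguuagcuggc

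In an mRNA, the 7-mer complementary to the seed reads CACTGCC, and the shorter match to bases 2 to 7 followed by an A is ACTGCCA. Neither was present in any of the 16 member probes, read in the sense direction, and they occurred in 0.435% and 0.393% of all probes of the array, respectively. The probes cover only 60 bases of each transcript, and the remainder of the transcripts was not analysed here.

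The ULBP2 probe and 1 of the 2 CD274 probes are printed because these genes are the reported miR-34a targets. That of ULBP3 is printed because it is a close relative of ULBP2 whose probe names a single gene.

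ULBP2 probe A_23_P145485: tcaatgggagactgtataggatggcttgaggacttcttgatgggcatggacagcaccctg

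ULBP3 probe A_23_P134100: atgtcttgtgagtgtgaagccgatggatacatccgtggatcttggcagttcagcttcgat

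CD274 probe A_33_P3381513: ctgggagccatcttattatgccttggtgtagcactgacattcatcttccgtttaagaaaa

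The ULBP2 probe (chr6:150267714-150267773, from base 628 of its transcript) is not specific to ULBP2. The accessions that the array lists for it belong to ULBP2, RAET1L and RAET1G, all of which encode NKG2D ligands, so its signal is the sum of whichever of these transcripts the cells contain. It was the only 1 of the 16 member probes whose accessions named another gene, with 27 of 30 RefSeq accessions found in the gene table. The accessions not found were all listed for the MICA probes, so the genes that they name were not checked. RAET1L and RAET1G had no probe under their own names.

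GIST-T1 showed the markers of its origin. All 6 GIST markers looked up (KIT, ANO1, ETV1, PRKCQ, CD34 and PDGFRA) were well above background on all 4 arrays, and 2 of them read lower by over 1.5-fold after the mimic, KIT by a log2 difference of -0.70 and PDGFRA by -1.53. Of 10 immune cell markers, 9 had probes, and CD3D, MS4A1 and NKG7 were not well above background on any array. PTPRC, the leukocyte common antigen, was detected on at most 2 arrays by any of its 5 probes. The summed signal of the marker probes, as a multiple of the array's 75th percentile, was 1.27 and 1.21 after the mimic and 1.38 and 1.44 after the negative control RNA. Among the 5 immune markers tested, 3 were lower and 2 were higher after the mimic. ITGAM, an integrin chain of myeloid cells, was the only one beyond 1.5-fold, with signals of 30.8 and 31.5 on the mimic arrays and 53.0 and 49.0 on the control arrays (1.64-fold lower, adjusted p = 0.0948 by limma). The part of these markers in the results below was not tested.

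Values are log2 processed signals minus the 75th percentile of their array, and limma was applied to probes that both arrays of 1 or both conditions measured well above background. Of the 16 member probes, 9 passed, covering 6 of the 9 genes, and each of these 9 was well above background on all 4 arrays. Another 5 probes were not well above background on any array, and the 2 remaining probes were detected on a single array. MICA, MICB, ULBP2, CD276, CD47 and PVR could therefore be compared, whereas for ULBP1, ULBP3 and CD274 only the low signals are given. For a single probe, the smallest p that an exact two-sided permutation test can reach with these 4 arrays is 0.33.

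**Figure D1:**
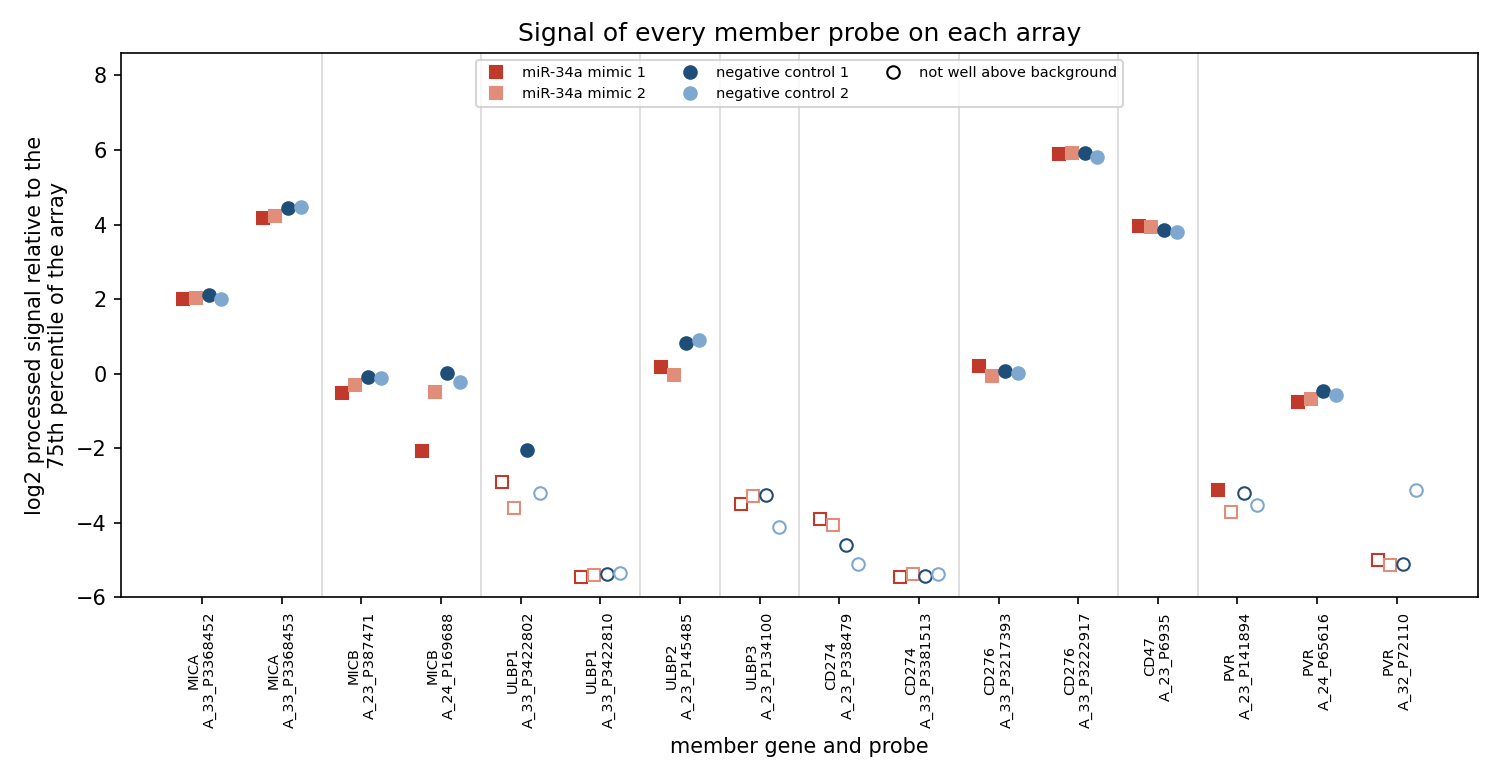
Log2 processed signal, relative to the 75th percentile of each array, for the 16 member probes on the 2 miR-34a mimic arrays (squares) and the 2 negative control arrays (circles), with open symbols where the spot was not well above background. ULBP2 and 1 MICA probe show mimic arrays below control arrays by more than the gap between replicates. For 1 MICB probe a single array is low, and all CD274 and ULBP3 symbols are open.

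Among the 9 tested probes, 2 (for ULBP2 and MICB) were lower in the mimic arrays by over 1.5-fold, and 0 were higher. Of all probes tested, 4.8% were lower and 2.11% were higher by this threshold. By limma 0 of the 9 passed an adjusted p of 0.05, as did 0% of all probes (smallest adjusted p 0.0948). The methods' t-test, which the study names for continuous variables, gave 0 as well after Benjamini-Hochberg adjustment, against 0.00466% of all probes. The study names no test for the arrays. At an unadjusted p of 0.05 by limma, 3 member probes were lower, for ULBP2, MICA and MICB, where 11.6% of all probes were lower, and 0 were higher, where 12.7% of all probes were higher. With a variance trend over signal intensity, limma called 2 member probes lower at an adjusted p under 0.05, for ULBP2 and MICA, against 3.6% of all probes, and 0 higher, against 3.81%. Both mimic arrays lay below both control arrays for 5 member probes, against 30.1% of all probes, and above them for 1, against 30.4%.

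By role, all 5 tested probes of NKG2D ligands (2 MICA, 2 MICB and 1 ULBP2) were lower after the mimic, with a median log2 difference of -0.31. Of the 4 tested probes of CD276, CD47 and PVR, 1 read lower and 3 read higher (median 0.04). Over all tested probes, 51.5% were lower. These counts are small, the probes of a gene are not independent, and the difference between the roles was not tested.

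ULBP2, or the ULBP2, RAET1L and RAET1G transcripts that the probe can bind, showed the clearest difference. Its processed signal was 165 and 141 on the mimic arrays against 258 and 264 on the control arrays. Each mimic array lay below each control array, and the gap between conditions was wider than the gap between replicates. The log2 difference was -0.78 (standard error 0.10, 95% interval -1.09 to -0.48), that is, 1.72-fold lower, with an unadjusted p of 0.00262 and an adjusted p of 0.0954 by limma. With that variance trend the adjusted p was 0.0205 by limma, and over all alternatives it ranged from 0.0205 to 0.357. The log2 difference stayed between -0.90 and -0.67 with any 1 array left out. In the order of log2 differences from the lowest, the probe was number 570 of the 21474 tested.

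The genes most like ULBP2 over the 4 arrays were found by the Euclidean distance between mean-centred log2 values of the brightest tested probe. Among 16171 gene names outside the members, the nearest were MOV10 (distance 0.04) and C2orf15 (distance 0.05), with log2 differences of -0.78 and -0.79. The third was a probe with no gene name. With so many genes and 4 arrays such closeness is a description of the values only. No such search was made for CD274, which had no tested probe.

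MICA was measured by 2 probes in neighboring sequence, separated by 10 bases on chromosome 6, and they did not give the same result. The brighter probe, A_33_P3368453 (chr6:31382847-31382906), read 2634 and 2707 on the mimic arrays and 3171 and 3178 on the control arrays. Here both mimic arrays were lower by more than the replicate gap, with a log2 difference of -0.26 (standard error 0.06, 95% interval -0.42 to -0.09), 1.19-fold lower. The p by limma was 0.0132 unadjusted and 0.131 adjusted, and 0.0325 after adjustment with the variance trend. The other probe, A_33_P3368452 (chr6:31382917-31382976), read 580 and 592 on the mimic arrays and 629 and 573 on the control arrays, so that the conditions overlapped. Its log2 difference was -0.04 (95% interval -0.22 to 0.14, adjusted p = 0.683 by limma), and it became 0.0005 without negative control 1. According to the array annotation the first probe matches a further MICA transcript that is not listed for the second, and the part of transcript variants in the disagreement was not tested.

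MICB also had 2 probes, 3588 bases apart in the genome, and both read lower after the mimic. Probe A_23_P387471 (chr6:31478833-31478892) gave 100.4 and 119 on the mimic arrays and 138 and 130.1 on the control arrays. The conditions did not overlap, although the mimic replicates differed from each other by more than the control replicates did. The log2 difference was -0.31 (95% interval -0.60 to -0.01), 1.24-fold lower, with an unadjusted p of 0.0472 and an adjusted p of 0.201 by limma.

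Probe A_24_P169688 (chr6:31475185-31475244) gave the widest difference of any member, but it rested on 1 array. The signal was 34.7 on miR-34a mimic 1 against 103 on miR-34a mimic 2, and 148 and 121 on the control arrays. The log2 difference was -1.17 (95% interval -2.90 to 0.56), 2.25-fold lower, with an adjusted p of 0.316 by limma. Without miR-34a mimic 1 it was -0.39, which is below the 1.5-fold threshold, and without miR-34a mimic 2 it was -1.95. The 2 mimic arrays were thus farther apart on this probe than mimic 2 was from the controls.

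ULBP1 and ULBP3 were at the limit of detection. ULBP1 probe A_33_P3422802 (chr6:150294682-150294741) was detected by negative control 1 alone, with a signal of 35.7 there, 15.4 on negative control 2, and 19.4 and 11.9 on the mimic arrays. The conditions overlapped, since miR-34a mimic 1 lay above negative control 2, and no fold is given. The second ULBP1 probe, A_33_P3422810, read 3.3 to 3.5 on all arrays. ULBP3, by its single probe (chr6:150386727-150386786), read 13.0 and 14.9 on the mimic arrays and 15.3 and 8.2 on the control arrays, not well above background on any of them. For comparison, the dimmest probe well above background had a signal of 14.7 to 15.7, depending on the array.

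CD274, the other reported miR-34a target, was not detected. Probe A_33_P3381513 (chr9:5465546-5465605) read 3.3, 3.5, 3.4 and 3.4, and probe A_23_P338479 (chr9:5468310-5468369) read 9.7 and 8.7 on the mimic arrays and 6.1 and 4.1 on the control arrays. None of these 8 spots was well above background. On the second probe the mimic arrays gave the higher signals, and no fold is given because both conditions lay below detection. A decrease of CD274 mRNA after the mimic was therefore not detectable on these arrays.

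CD276 had strong signal and the conditions overlapped. Its brighter probe, A_33_P3222917 (chr15:74006791-74006850), read 8611 and 8879 on the mimic arrays and 8927 and 7936 on the control arrays. The log2 difference was 0.05 (95% interval -0.16 to 0.25, adjusted p = 0.692 by limma), an interval that excludes a 1.5-fold change in either direction for this probe. The second probe, A_33_P3217393 (chr15:73996699-73996758), read 167 and 139.9 against 154 and 143, with a log2 difference of 0.04 (95% interval -0.29 to 0.36, adjusted p = 0.857 by limma). The sign of each changed when a single array was left out, to -0.01 without negative control 2 for the first and to -0.09 without miR-34a mimic 1 for the second.

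CD47 was slightly higher on both mimic arrays. Its probe, A_23_P6935, lies on the minus strand between 107778363 and 107779622 of chromosome 3, across a splice junction, and read 2249 and 2211 on the mimic arrays and 2131 and 1998 on the control arrays. The conditions did not overlap, but the log2 difference of 0.10 (95% interval -0.06 to 0.27, 1.08-fold) did not pass the test, with an unadjusted p of 0.141 and an adjusted p of 0.331 by limma.

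PVR was detected on all arrays by 1 of its 3 probes. That probe, A_24_P65616 (chr19:45166078-45166137), read 85.4 and 91.6 on the mimic arrays and 106 and 95.7 on the control arrays. Both mimic values were below both control values, but the nearest arrays of the conditions were about as far apart as replicates were. The log2 difference was -0.19 (95% interval -0.41 to 0.02), 1.14-fold lower, with an unadjusted p of 0.0627 and an adjusted p of 0.227 by limma. Of the other probes, A_23_P141894 was well above background on miR-34a mimic 1 alone (16.7) and A_32_P72110 on no array, with 16.4 on negative control 2 against 4.2 to 4.5 on the other arrays.

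**Figure D2:**
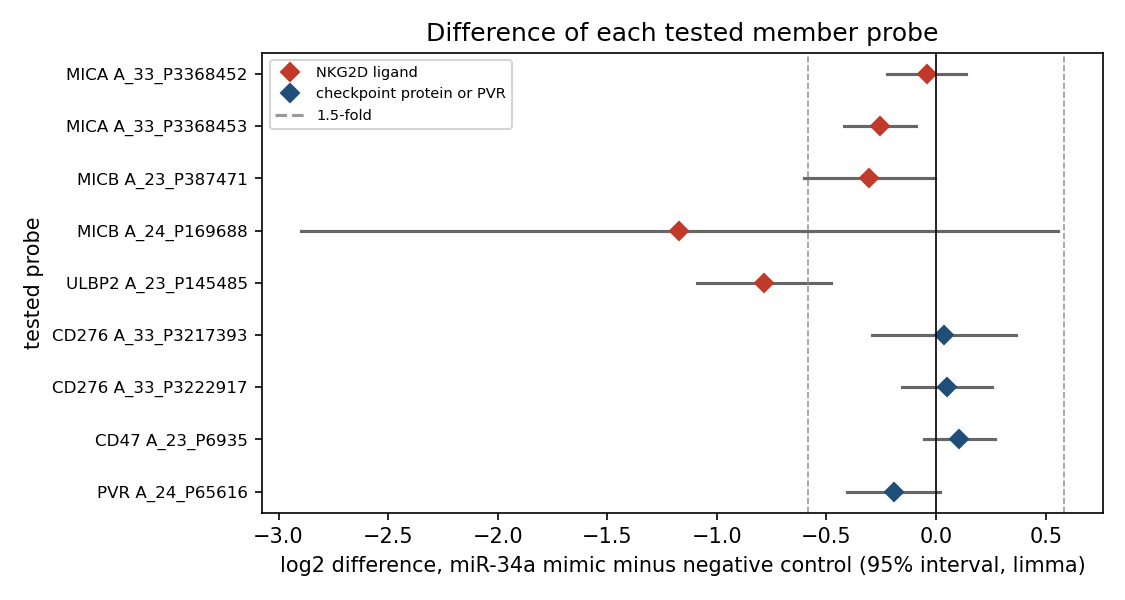
Log2 difference of each tested member probe, miR-34a mimic minus negative control, with the 95% interval from limma, zero as a solid line and the 1.5-fold threshold as dashed lines. The interval of ULBP2 lies below zero, that of MICB probe A_24_P169688 spans -2.90 to 0.56, and those of CD276 and CD47 stay inside the 1.5-fold lines.

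Relatives of the NKG2D ligands were looked up under their own names. RAET1E, which encodes another NKG2D ligand, was detected on at most 2 arrays. The pseudogene RAET1K, looked up after the values of ULBP2 were seen, was well above background on all 4 arrays by probe A_21_P0013163, at 78.4 and 103 on the mimic arrays and 101 and 106.9 on the control arrays. The second RAET1K probe was detected on negative control 1 alone, with 94.7 there and 5.2 to 13.2 elsewhere.

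Other genes of tumor cell recognition were read from lists defined by role, with the brightest tested probe of each gene. Among all 16192 gene names tested in this way, 4.83% were lower by over 1.5-fold and 1.95% were higher, and the median log2 difference was -0.01. For the 6 tested members the median was -0.23, with 4 lower, and 1 of them, ULBP2, was lower by more than 1.5-fold. By limma 0 genes of any list passed an adjusted p of 0.05.

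Of 19 checkpoint ligands of the B7 and TNF families and other checkpoint genes, 10 were tested, of which 6 read lower and 4 read higher (median -0.04). Lower by more than 1.5-fold were 4 (TNFSF18, ICOSLG, CD70 and CD86), and 0 were higher. CD70 and CD86 passed the filter only through the control arrays, so that the filter helped to set their direction. Among the 8 genes detected on all 4 arrays, 4 read lower and 4 read higher (median 0.0021), and 2 were lower by more than 1.5-fold. TNFSF18, the ligand of the T cell receptor GITR, read 204 and 195 on the mimic arrays and 304 and 293 on the control arrays. The log2 difference was -0.59 (standard error 0.06), for which limma gave an adjusted p of 0.0948, or 0.0166 with the variance trend. This gene lay close to the 1.5-fold threshold and was 1.47-fold lower without miR-34a mimic 2. CD70, the ligand of CD27, was well above background on both control arrays (20.3 and 56.9) and on neither mimic array (8.9 and 3.5). Its signal was at least 2.24-fold lower, a limit that rested on negative control 2 and was 1.32-fold without it. ICOSLG, the ligand of ICOS, was 1.83-fold lower (adjusted p = 0.234 by limma) with control signals of 50.3 and 27.1, and 1.36-fold lower without negative control 1. CD86 read 37.2 and 4.0 on the mimic arrays against 42.5 and 48.3, and without miR-34a mimic 2 it was 1.22-fold lower. CD274's relative PDCD1LG2, also a ligand of PD-1, stayed undetected throughout, like CD80, VTCN1, HHLA2, CD200 and IDO1.

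The nectins, to whose family PVR belongs, and other ligands of NK cell receptors did not differ beyond 1.5-fold. Of 12 genes, 7 were tested, of which 3 read lower and 4 read higher (median 0.01). For PVRL2, which shares the receptor CD226 with PVR, the log2 difference was 0.04, and its adjusted p was 0.669 by limma. ICAM1, which binds the integrin LFA-1 of lymphocytes, read lower in each mimic array, by -0.31 on the log2 scale (limma, adjusted p = 0.106). BAG6, with the strongest signal of the list, had a log2 difference of 0.10.

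For MHC class I antigen presentation, which NK cells sense as an inhibitory signal, all 20 genes were tested, of which 9 read lower and 11 read higher (median 0.05), with 0 beyond 1.5-fold. The class I chains HLA-B, HLA-C and HLA-E had log2 differences of -0.01, -0.03 and 0.08, and B2M, their shared light chain, had 0.15. Probes for class I chains can bind transcripts of more than 1 of these similar genes. TAP2 (-0.48) and CANX (-0.38), which act in peptide transport and in folding of class I chains, were the lowest, with unadjusted p of 0.0153 and 0.0117 by limma. CALR, the list's gene with the strongest signal, had -0.30.

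Among 12 genes for shedding or surface delivery of these ligands, 10 were tested, 6 were lower and 4 were higher, and the median of -0.01 became 0.0012 after quantile normalization. ADAM10 and ADAM17, proteases that release NKG2D ligands from the cell, had log2 differences of -0.10 and 0.11. CMTM6, which keeps CD274 at the cell surface, had -0.0027, and GPAA1, a subunit of the enzyme complex that attaches GPI anchors, had -0.04. MMP14 was undetected on all 4 arrays.

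Of 20 regulators known to act on these genes, 19 were tested, of which 11 read lower and 8 read higher (median -0.03), with 0 beyond 1.5-fold. CHEK1, a kinase of the DNA damage response that raises NKG2D ligands, read lower on both mimic arrays, by -0.39 on the log2 scale (limma, adjusted p = 0.0954, and 0.0157 with the variance trend). MYC, a transcription factor, read higher, with 0.53 (adjusted p = 0.0954 by limma and 0.131 with the variance trend). JAK2 and IRF1, which carry the interferon signal to CD274, had 0.38 and -0.05. Of 25 interferon-induced genes, 18 were tested, all detected on all 4 arrays, and 13 of these read higher and 5 lower (median 0.24). At an unadjusted p under 0.05 by limma, 10 were higher, which is 55.6% against 13% of all genes, and 1 was lower. The variance trend in limma put 6 of the higher genes under an adjusted p of 0.05. Higher by more than 1.5-fold were 2, which is 11.1% against 1.95% of all genes. They were IFIT1, an inhibitor of viral translation, at 1.72-fold (adjusted p = 0.0954 by limma) and XAF1, a proapoptotic gene, at 1.68-fold (adjusted p = 0.143 by limma). Without negative control 2, XAF1 was 1.45-fold higher, and the other of its 2 tested probes read lower after the mimic.

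The 3 complement regulators included 2 tested genes, CD46 with 0.31 and CD55 with -0.10, giving a median of 0.11. Of 13 receptors that immune cells use to read these ligands, 9 were not well above background on any array, including KLRK1, which encodes NKG2D, as well as TIGIT, CD96 and CD226. LAG3 was tested only because both control arrays detected it, so that its lower direction was set by the filter. The 3 receptors detected on all 4 arrays (HCST, SIRPA and PDCD1) read lower, with a median of -0.22. SIRPA, the receptor of CD47, read 164 and 93.5 on the mimic arrays and 173 and 245 on the control arrays, 1.67-fold lower (adjusted p = 0.312 by limma), and 1.26-fold lower without miR-34a mimic 2. LAG3 was at least 1.56-fold lower, with control signals of 22.4 and 24.8 near the detection limit.

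**Figure D3:**
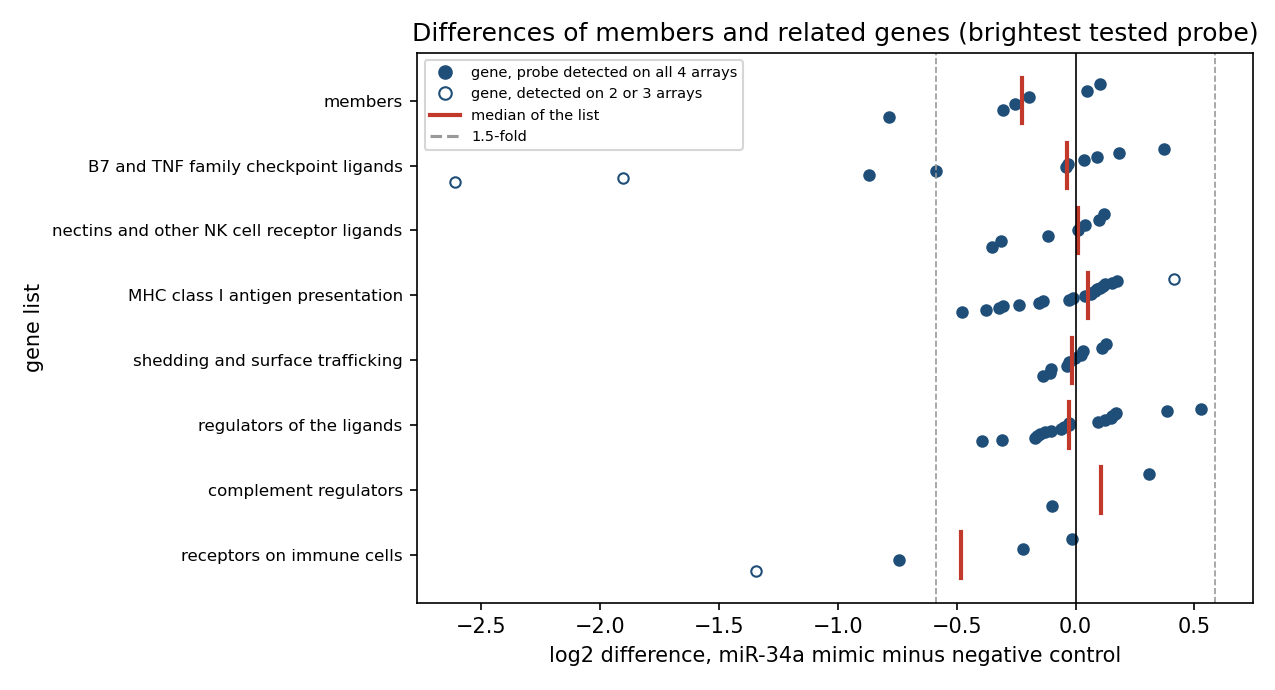
Log2 difference between miR-34a mimic and negative control for each tested gene of 8 lists (points, open where the probe was detected on 2 or 3 arrays only), with the median of each list as a red bar and the 1.5-fold threshold as dashed lines. In these 8 lists the points beyond 1.5-fold lie on the lower side, for CD70, CD86 and LAG3 with the help of the filter. They belong to the members, the B7 and TNF family list and the receptors on immune cells. Undetected arrays enter at their own signal. The interferon-induced genes, of which 2 were higher by more than 1.5-fold, are not shown.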

How the data were processed

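Gene expression in GIST-T1 cells was measured on one-color Agilent SurePrint G3 arrays, with 2 arrays for each of the mimic and control conditions, grouped by the sample labels. The authors deposited the intensity of each spot from Agilent Feature Extraction 10.7.3.1 (hg19 annotation), background-subtracted and detrended within an array but not scaled between arrays. Other deposited columns are flags, and the intensities in the authors' combined file differed from these by at most 0.496%. It had 0 columns of unmapped samples. The arrays shared 1 slide and 1 scan.

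Control spots and spots with outlier flags (293 to 424 of 58717 per array) were left out, 0 spots were saturated, and spots of a probe were averaged. The log2 signal was shifted by the array's 75th percentile. Of the probes, 41.8% to 45.2% per array were well above background, and the 21474 that were so on both arrays of a condition were tested by lmFit and eBayes of limma 3.58.1, under R 4.3.3, and p-values were adjusted by Benjamini-Hochberg. For 21 of them a flagged array was dropped, none a member probe. The fold threshold of 1.5 is that of the study. The number of arrays limits the precision.

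Named were every member probe and, from the related lists, genes beyond 1.5-fold, those of highest signal, regulators and markers. Other genes of these lists were named after their values were seen. The members and lists were chosen with earlier results of these data known. The results were recomputed with quantile normalization, normexp background correction (offset 50), the 75th percentile over detected probes, 3 other filters, the authors' combined file, the replicate block, a variance trend, the methods' t-test and leaving out each array. Restricting the related lists to genes detected on all 4 arrays, and leaving out each array for their genes beyond 1.5-fold, was added after seeing the data. The calculations were tested on simulated data. Symbols were matched to RefSeq by accession.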

Additional observations from a re-analysis of the deposited data

How the results depend on the processing

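Of the 9 tested member probes, those of ULBP2, CD47, PVR and MICB and the brighter MICA probe kept their direction under all 14 alternatives. The other filters, the replicate block, the variance trend and the methods' t-test use the same log2 difference, so they could not change its sign. The conditions of these probes did not overlap, so leaving out an array could not reverse them either. Only the other normalizations, the background correction and the authors' combined file could have done so. The count of member probes lower by more than 1.5-fold (2) became 4 and that of higher ones (0) became 1 without a filter on dim probes, and the lower count became 3 with probes that at least 1 array detected. Without the filter the added probes are those of ULBP1, PVR and CD274 that few or no arrays detected. Leaving out 1 array at a time, the count of lower probes ranged from 1 to 2, and was 1 without miR-34a mimic 1, which decides the MICB probe A_24_P169688. When an array is left out, the lone array of its condition is assumed to vary like the other condition. The count at an adjusted p under 0.05 (0) became 1 under normexp background correction, where ULBP2 passed (adjusted p = 0.0293 by limma), and 2 with the variance trend. Reversed were the small differences of CD276 probe A_33_P3217393, to -0.0947 without miR-34a mimic 1 (range -0.0947 to 0.167 with each array left out), of CD276 probe A_33_P3222917, to -0.0138 without negative control 2 (range -0.0138 to 0.1094), and of MICA probe A_33_P3368452, to 0.0005 without negative control 1 (range -0.087 to 0.0005). With the replicate number as a block, 0 member probes passed and the adjusted p of ULBP2 was 0.223 by limma. The number does not pair the arrays by any label, and the deviations of same-numbered arrays had a correlation of -0.0276. Low signal limits what can be said of ULBP1, ULBP3 and CD274.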
